A study of Mus musculus with 4 samples.

Results

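The translation initiation factors described here are the 51 genes whose names start with Eif1 to Eif6, apart from the eIF2 alpha kinases (Eif2ak) and the Argonaute names (Eif2c), of 20380 genes in a knockout screen. The rule takes genes by name and uses no measured value, though this set of genes was proposed with earlier results of the screen known. Of them 43 have 6 guides and 8 have 5, or 298 guides in all. Initiation is the step at which the small ribosomal subunit, loaded with initiator tRNA, is brought to the capped end of an mRNA and scans to the start codon. eIF2 carries the initiator tRNA and is recharged with GTP by eIF2B, and phosphorylation of eIF2 alpha turns eIF2B off in the integrated stress response. eIF1, eIF1A and eIF3 bind the small subunit, the eIF4 factors recognise the cap and unwind the mRNA, and eIF5 and eIF5B act at start codon selection and joining of the large subunit.

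The cells were E14, an established male line of mouse embryonic stem cells, in which tdTomato reports MERVL, a retrovirus-derived repeat transcribed in the early cleavage embryo and in a small share of cultured stem cells. All 4 libraries came from cells of this genotype that had received the lentiCRISPRv2 guide library. All were transduced for 24 h with polybrene at 4 ug/mL and then selected for 48 h with puromycin at 2 ug/mL. In 2 libraries the cells were MERVL-positive, sorted by fluorescence at day 5, and in the other 2 they were total cells. The titles call the members of each pair sequencing repeats, so any spread between them may be technical. About 3.84 sorted cells were available per guide of the library, which limits what can be detected for 1 gene. The authors' deposited table gives each gene a single comparison of the groups without values per library, so neither depth nor the spread between libraries is known.

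In the authors' deposited table, the group taken as numerator is not stated. Positive values are taken to mean that guides were more abundant in the MERVL-positive libraries, a likely direction that remains unsettled. It rests on the title, where Ints7 deficiency goes with active MERVL, and on Ints7 standing at rank 157 for positive and 18586 for negative change per the authors' deposited table. This basis is thin, since Ints7 itself has a log2 fold change of 0.14 there, and 3 of its 6 guides are up and 1 is down. With the other reading all directions below turn. "Guides up" and "guides down" are guides past the authors' own threshold in each direction. That threshold was loose, with 37.4% of the 116691 guides of all genes up and 38.0% down, and passing it does not show that a guide changed.

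As a group the initiation factors were centred near 0. Their median log2 fold change was -0.00069, beside -0.021 for all genes, with a range of -1.54 to 0.89. The standard deviation between members was 0.53, beside 0.48 between all genes. A value below 0 was held by 26 members, or 51.0%, beside 52% of all genes. The quartiles of all genes, from lowest to highest, held 10, 15, 13 and 13 members. Of the members' guides, 40.3% were down (exact 95% interval 34.7 to 46.1, for counting error only and with guides taken as independent) and 34.2% were up (28.9 to 39.9). Both intervals hold the share over all genes.

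No member passed a false discovery rate of 0.05 per the authors' deposited table, for depletion (0.00491% of all genes) or enrichment (0%). The lowest rates among members per the authors' deposited table were 0.754 for depletion and 0.985 for enrichment. An unadjusted depletion p under 0.05 was held by 4 members per the authors' deposited table, or 7.84%, beside 5.07% of all genes. These were Eif2b3, Eif4a3, Eif3b and Eif5. An unadjusted enrichment p under 0.05 was likewise held by 4 members per the authors' deposited table, beside 5.02% of all genes. These were Eif2s3y, Eif4g3, Eif2d and Eif1a. At the shares of all genes, 2.59 and 2.56 members would be counted.

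The lowest values lay further out than the highest, as over all genes, whose 5th and 95th percentiles were -0.87 and 0.66. A log2 fold change of -1 or less was held by 4 members, Eif2b3, Eif3h, Eif3b and Eif5, or 7.84%, beside 3.29% of all genes per the authors' deposited table. None reached 1 or more per the authors' deposited table, a size held by 0.868% of all genes. In 0 of the 51 members were all guides past the threshold in the same direction, beside 0.695% of all genes with 5 or 6 guides. Guides in both directions were found in 42 members, or 82.4%, beside 87.0% of all genes with 5 or 6 guides.

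**Figure D1:**
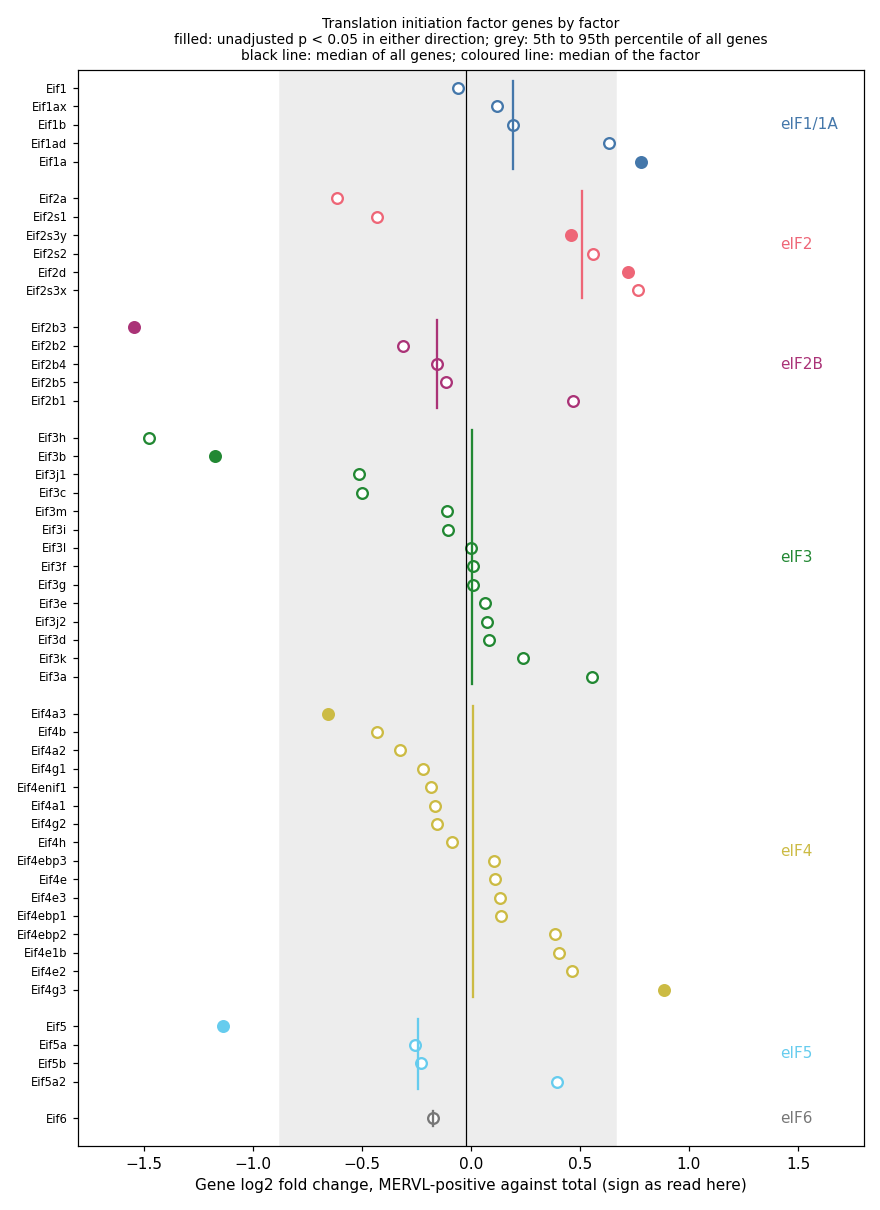
Deposited log2 fold change (x axis) of each of the 51 initiation factor genes, 1 point per gene, ordered within its factor. Filled points have an unadjusted p under 0.05 in either direction, coloured lines are factor medians, the black line is the median of all genes (-0.021) and the grey band runs from their 5th to their 95th percentile (-0.87 to 0.66). Eif2b3, Eif3h, Eif3b and Eif5 lie left of the band, and Eif4g3, Eif1a, Eif2s3x and Eif2d lie right of it.

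eIF2 binds GTP and the initiator tRNA through 3 subunits. The eIF2 trimer had 3 of its 4 genes above 0, beside 52% of all genes below 0. The gamma subunit, which holds the GTP and the tRNA, is encoded on both sex chromosomes in the mouse. The Y-linked copy Eif2s3y (chromosome Y, 1010562 to 1049134) had a log2 fold change of 0.46 per the authors' deposited table, where 4 of 6 guides were up and 2 down. Its enrichment p was 0.0187 at rank 389 of 22510 entries, and its depletion p 0.531, per the authors' deposited table. The X-linked copy Eif2s3x (chromosome X, 94188709 to 94212651) had the larger log2 fold change, 0.77, a ratio of 1.70, per the authors' deposited table. Its enrichment p was 0.168 per the authors' deposited table, which counts 3 of 5 guides up and 1 down. Both copies thus lay above 0, and the Y-linked one had an unadjusted p under 0.05, while the difference between the copies was not tested.

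The beta subunit gene Eif2s2 had a log2 fold change of 0.56 per the authors' deposited table, where 3 guides were up, 1 down and the enrichment p was 0.389. The alpha subunit gene Eif2s1, whose product is phosphorylated in the integrated stress response, had a value of -0.43 per the authors' deposited table, where 4 of 6 guides were down. Its depletion p per the authors' deposited table was 0.244. The genes of this trimer thus lay on both sides of 0.

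A pair of further genes carry eIF2 in their names without being subunits of the trimer. Eif2d, a factor of ribosome recycling and reinitiation (chromosome 1, 131153172 to 131187659), had a log2 fold change of 0.72 per the authors' deposited table, where 4 guides were up and 2 down. The authors' deposited table gave it an enrichment p of 0.0272 at rank 561. Eif2a, an alternative carrier of initiator tRNA, had a value of -0.61 per the authors' deposited table, where 4 of 6 guides were down and the depletion p was 0.338. The median of all 6 eIF2 genes was 0.51 and their mean 0.24.

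eIF2B is a decamer of 5 subunits present in pairs, with gamma and epsilon forming the catalytic part. The lowest value of all 51 members was found here. Eif2b3, the gamma subunit (chromosome 4, 117019399 to 117086852), had a log2 fold change of -1.54 per the authors' deposited table, a ratio of 0.343, with 4 of 5 guides down and none up. Its depletion p was 0.00161 at rank 46 of 22510, with a false discovery rate of 0.754, per the authors' deposited table. By log2 fold change alone it was the 121st lowest of the 20380 genes.

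The other eIF2B subunits did not lie near it. Eif2b5, the catalytic epsilon subunit that pairs with gamma, had a log2 fold change of -0.11 per the authors' deposited table, where 2 guides were up, 2 down and 2 neither and the lower p was 0.397, for depletion. Of the regulatory subunits, Eif2b2 (beta) stood at -0.31 with 3 guides down and Eif2b4 (delta) at -0.15 with 2 guides down per the authors' deposited table, each with 1 guide up. Their lower p-values per the authors' deposited table were 0.252 for depletion of Eif2b2 and 0.528 for enrichment of Eif2b4. Eif2b1, the alpha subunit through which the complex senses phosphorylated eIF2, had a value of 0.47 per the authors' deposited table. Its 6 guides were split into 3 up, 1 down and 2 neither, with an enrichment p of 0.0792 per the authors' deposited table. The factor's median was -0.15, with 4 of 5 genes below 0, beside 52% of all genes.

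eIF1 and eIF1A hold the scanning ribosome in an open state until the start codon is found. Of the 5 genes in this group 4 had values above 0 and 1 below, beside 52% of all genes below 0. Their median was 0.19. Eif1a (chromosome 18, 46597704 to 46610225) had a log2 fold change of 0.78 per the authors' deposited table, a ratio of 1.72, and 5 of its 6 guides were up and none down. It had the most guides up of all members. Its enrichment p per the authors' deposited table was 0.0418 at rank 885. The X-linked gene for the same factor, Eif1ax, had a value of 0.12 per the authors' deposited table, where 3 guides were up, 2 down and the enrichment p was 0.488.

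The pair of eIF1 genes lay close to 0. Eif1 had a log2 fold change of -0.057 per the authors' deposited table, where 1 guide was up, 2 were down and the depletion p was 0.733. Eif1b had a value of 0.19, an enrichment p of 0.407, and 3 guides up against 2 down per the authors' deposited table. Eif1ad encodes a protein with an eIF1A domain, whose human counterpart acts in maturation of the small ribosomal subunit. It had a value of 0.64 per the authors' deposited table, where 4 guides were up and 2 down, and neither p was under 0.05 (0.133 for enrichment and 0.0837 for depletion).

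eIF3 is the largest initiation factor, a scaffold on the small subunit that recruits the mRNA-bound eIF4 factors. Its 14 genes were split evenly, with 7 above and 7 below 0 and a median of 0.0042. Of their 81 guides, 40.7% were down and 28.4% up (exact 95% interval for up 18.9 to 39.5), beside 38.0% and 37.4% over all genes. The mean of the factor was -0.20, since 2 genes lay far below the rest.

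Those genes were Eif3h and Eif3b. Eif3h, an MPN-domain subunit of the core (chromosome 15, 51786563 to 51865461), had a log2 fold change of -1.47 per the authors' deposited table, where 4 of 6 guides were down and 1 up. Its depletion p of 0.0735 per the authors' deposited table did not pass 0.05 even unadjusted. Eif3b, the scaffold of the b-g-i module (chromosome 5, 140419305 to 140443358), had a value of -1.17 per the authors' deposited table, where 4 of 6 guides were down and none up. It stood at rank 450 for depletion with a p of 0.0207 per the authors' deposited table. Its partners in that module lay near the median of all genes. The authors' deposited table gave Eif3g, an RNA-binding subunit, a value of 0.0096, 2 guides up and 2 down and a depletion p of 0.669. For Eif3i, a WD-repeat subunit, the authors' deposited table gave -0.10, 1 guide up and 2 down and a depletion p of 0.403.

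The octamer of PCI and MPN proteins that forms the body of eIF3 had 4 genes above and 4 below 0. Eif3a, the largest subunit, had the highest value, 0.56 per the authors' deposited table, where 3 of 5 guides were up and none down and the enrichment p was 0.242. Eif3c, which pairs with Eif3a, had a value of -0.50 per the authors' deposited table, where 3 guides were down and 2 up and the lower p was 0.276, for enrichment. Of the adjoining subunits, the authors' deposited table gave Eif3k a value of 0.24, 3 guides up and 2 down, and a lower p of 0.208, for depletion. It gave Eif3l a value of -0.00069, 1 guide up and 2 down and a depletion p of 0.446. Both lay between the quartiles of all genes, -0.33 and 0.26. Eif3e, a PCI subunit, had a value of 0.064 per the authors' deposited table, where 2 guides were up and none down and the enrichment p was 0.785. The MPN subunit gene Eif3f stood at 0.0091 per the authors' deposited table, where 2 guides were up and 3 down and the enrichment p was 0.468. The PCI subunit gene Eif3m stood at -0.11 per the authors' deposited table, where 2 guides were up and 3 down and the depletion p was 0.422. Thus 1 gene of the octamer, Eif3h, lay beyond 1 on the log2 scale and none had an unadjusted p under 0.05.

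Outside the octamer, the cap-binding subunit gene Eif3d had a value of 0.082 per the authors' deposited table, where 2 of 5 guides were up and 2 down. Its depletion p of 0.246 and enrichment p of 0.249 per the authors' deposited table were close. The mouse has a pair of genes for the loosely bound subunit j. Eif3j1 had a value of -0.51 per the authors' deposited table, where 4 guides were down and 2 up, and Eif3j2 one of 0.075, with 2 of 5 guides down and none up. Their depletion p-values per the authors' deposited table were 0.226 and 0.582.

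**Figure D2:**
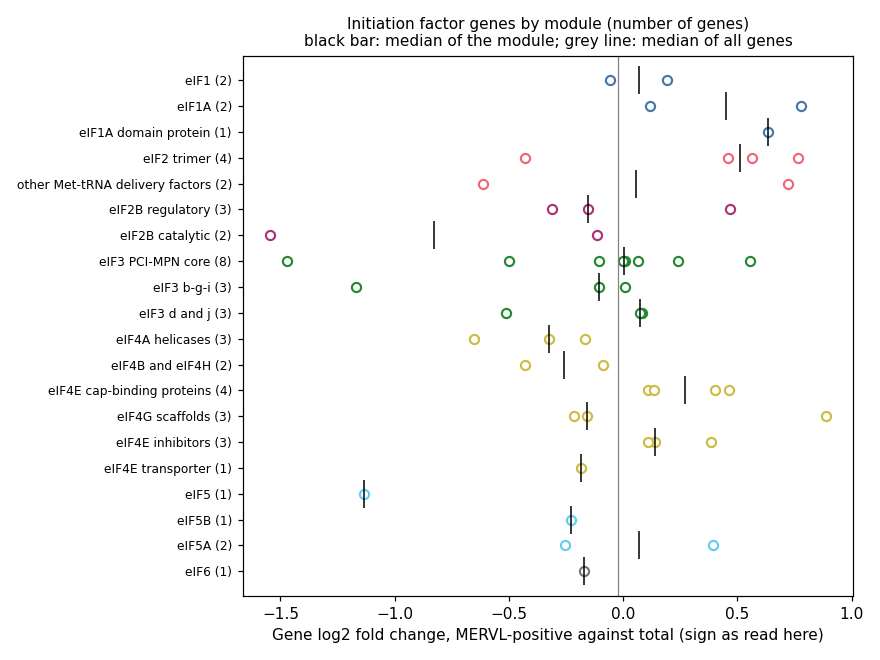
Deposited log2 fold change (x axis) of the 51 initiation factor genes by the module of the factor they belong to, 1 point per gene, with the number of genes after each name. Black bars are module medians and the grey line is the median of all genes (-0.021). The eIF4A helicases and eIF4B with eIF4H lie below 0 and the cap-binding eIF4E proteins and their inhibitors above it, each in groups of 2 to 4 genes. The split into modules was made with the values in view, and 52% of all genes lie below 0.

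The eIF4 factors bring the ribosome to the cap. Their 16 genes had a median of 0.010, with 8 above and 8 below 0, beside 52% of all genes below 0. The medians of the modules lay on both sides of 0. The split into modules was made with the values in view, and their differences were not tested. All 3 helicase genes named eIF4A lay below 0. Eif4a1, the main helicase of initiation, had a log2 fold change of -0.17 per the authors' deposited table, where 2 guides were up and 2 down. Its near-copy Eif4a2 had one of -0.32 per the authors' deposited table, where 1 guide was up and 3 were down. The lower p of Eif4a2 per the authors' deposited table was 0.310, for enrichment, against the sign of its value. Eif4a3 (chromosome 11, 119288363 to 119300043), whose product marks exon junctions and is not a canonical initiation factor, had a value of -0.65 per the authors' deposited table. The authors' deposited table ranked it 429 for depletion, with a p of 0.0183, 3 of 5 guides down and none up. The helicase cofactors Eif4b and Eif4h had values of -0.43 and -0.087 per the authors' deposited table. Of the 6 guides of each 3 were down, with 1 up for Eif4b and 2 up for Eif4h.

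The 4 genes of the eIF4E family, which bind the cap, all lay above 0, beside 52% of all genes below 0. Eif4e, the main cap-binding protein, had a log2 fold change of 0.11 per the authors' deposited table, where 2 guides were up and 2 down. Eif4e2, a cap-binding protein that represses translation, had one of 0.46 per the authors' deposited table, where 4 guides were up and 2 down. Its lower p per the authors' deposited table was 0.118, for depletion, against the sign of its value. Eif4e1b, a family member known from the oocyte, stood at 0.40 and Eif4e3 at 0.14 per the authors' deposited table. None of the 4 had an unadjusted p under 0.05 per the authors' deposited table.

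The 3 inhibitors that compete for eIF4E lay above 0, beside 52% of all genes below 0. Eif4ebp1, Eif4ebp2 and Eif4ebp3 had values of 0.14, 0.39 and 0.11 per the authors' deposited table. Of their 18 guides 8 were up and 7 down. Eif4enif1, which carries eIF4E into the nucleus and into P-bodies, had a value of -0.18 per the authors' deposited table. The lowest p of these 4 genes per the authors' deposited table was 0.194, for enrichment of Eif4ebp2. None of the 4 eIF4E genes and 3 inhibitor genes had an unadjusted p under 0.05 per the authors' deposited table. Cyfip1, another eIF4E-binding repressor, had a value of -0.049 per the authors' deposited table.

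The eIF4G scaffolds spread widely. Eif4g3 (chromosome 4, 137991779 to 138207086) had the highest value of all 51 members, 0.89 per the authors' deposited table, a ratio of 1.85. It had 4 guides up and 2 down, with an enrichment p of 0.0194 at rank 402 and a depletion p of 0.683, per the authors' deposited table. Eif4g1, the major scaffold, had a log2 fold change of -0.22 per the authors' deposited table, where no guide was up and 2 were down. Eif4g2, a relative that does not bind eIF4E, had one of -0.16 per the authors' deposited table.

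eIF5 prompts eIF2 to hydrolyse its GTP at the start codon. Eif5 (chromosome 12, 111538101 to 111546753) had a log2 fold change of -1.13 per the authors' deposited table, a ratio of 0.456, with 5 of 6 guides down and none up. It had the most guides down of all members. Its depletion p was 0.0445 at rank 953 per the authors' deposited table. Eif5b, the GTPase of subunit joining, had a value of -0.23 per the authors' deposited table, where 3 guides were down and 1 up.

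The eIF5A proteins, which act mainly in elongation, are unrelated to eIF5. Eif5a had a value of -0.25 per the authors' deposited table, where 4 guides were down and 1 up, and its paralogue Eif5a2 one of 0.39, with 4 guides up and 2 down. The depletion p of Eif5a was 0.305 and the enrichment p of Eif5a2 0.170 per the authors' deposited table. Over the 4 genes grouped here by name 58.3% of 24 guides were down (exact 95% interval 36.6 to 77.9) and 6 were up. That interval holds the share over all genes, 38.0% down. Eif5 alone had 5 of the 14 guides down. Eif6, which keeps the large subunit from joining too early, had a value of -0.17 per the authors' deposited table, where 3 guides were up and 3 down and the lower p was 0.226, for depletion.

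**Figure D3:**
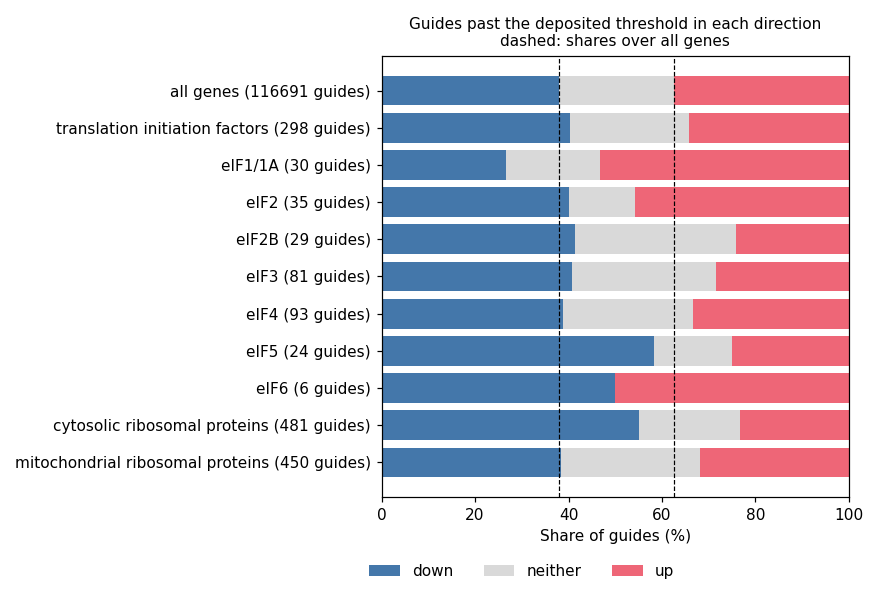
Share of guides (x axis, percent) past the deposited threshold downwards (blue), upwards (red) or in neither direction (grey), for all genes, the initiation factors, each factor and ribosomal protein genes. Dashed lines mark the shares over all genes, 38.0% down and, from the right, 37.4% up. The initiation factors as a whole lie close to those lines at 40.3% and 34.2%, and cytosolic ribosomal protein genes lie apart at 55.1% and 23.3%.

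The guides of a single gene often lay in both directions. At least 2 guides up and at least 2 down were found in 24 members, or 47.1%, beside 44.3% of all genes with 5 or 6 guides. In 9 members the sign of the log2 fold change opposed the direction with the lower p per the authors' deposited table, which is 17.6% beside 19.3% of all genes. Among these, Eif1ad and Eif4e2 had 4 guides up and 2 down, with depletion p-values of 0.0837 and 0.118 per the authors' deposited table against enrichment p-values of 0.133 and 0.149. The 4 members with an unadjusted depletion p under 0.05 had 0 guides up. Of the 4 with an unadjusted enrichment p under 0.05, Eif1a had no guide down and Eif2s3y, Eif2d and Eif4g3 had 2 each. No guide up was found in 6 members, or 11.8%, beside 6.56% of all genes with 5 or 6 guides. No guide down was found in 3, or 5.88%, beside 6.42%. The p-values and the guide counts come from the same guides, so the counts are no separate support for these genes.

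**Figure D4:**
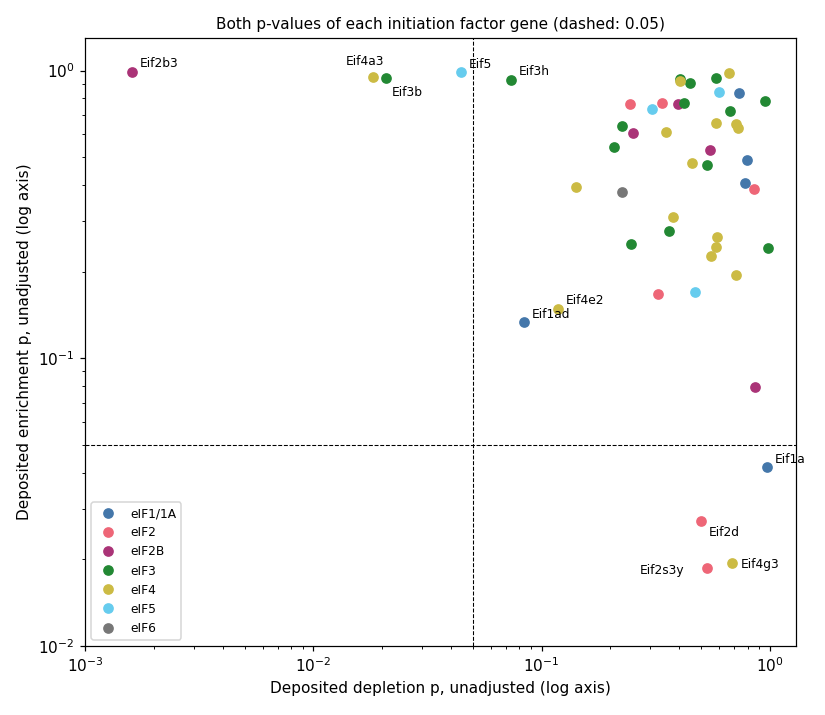
Unadjusted depletion p (x axis, log scale) against unadjusted enrichment p (y axis, log scale) in the authors' table for the 51 initiation factor genes, coloured by factor, with dashed lines at 0.05. The 4 genes left of the vertical line have enrichment p-values above 0.9, while Eif1ad and Eif4e2 lie toward the lower left with both p-values under 0.15.

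Genes with related copies need care, since the guide sequences were not used here and a guide can cut more than 1 locus. Near-copies among the members are Eif1 and Eif1b, Eif1a and Eif1ax, Eif2s3x and Eif2s3y, Eif3j1 and Eif3j2, and Eif4a1 and Eif4a2. RefSeq lists a further 12 loci under like names, 11 of them pseudogenes, among them relatives of Eif1, Eif2s3x, Eif3e, Eif4a3 and Eif5a. The values of Eif2s3y, Eif1a and Eif4a3 are uncertain for this reason. Without the near-copies paired above the median of the members was -0.087. Eif3e, Eif4a3 and Eif5a were kept in it, so relatives outside those pairs are not accounted for.

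Other genes of translation gave the setting. Of 13 genes listed under elongation and termination, 9 lay below 0, beside 52% of all genes, with a median of -0.26. The list takes in Eef1e1 of the multisynthetase complex, the eEF2 kinase gene Eef2k and Dhps and Dohh, whose products modify eIF5A. These are not themselves elongation or termination factors. They lay at -0.56, -0.42, -0.19 and -0.38 per the authors' deposited table. The 4 genes above 0 were all elongation or termination factors. In the whole list only the translocase gene Eef2 had an unadjusted p under 0.05 per the authors' deposited table. It lay at -0.68, with 4 of 6 guides down, 2 up and a depletion p of 0.00692 per the authors' deposited table. The list of ribosome recycling and reinitiation held 3 genes, all below 0 with no unadjusted p under 0.05. It leaves out Eif2d, a member with a like role, which lay at 0.72 with an enrichment p of 0.0272 per the authors' deposited table. The authors' deposited table gave Denr, of the DENR-MCTS1 reinitiation factor, -1.72 with 3 of 5 guides down, 2 up and a depletion p of 0.103. Its partner Mcts1 had a value of -0.25 per the authors' deposited table. The subunit-splitting ATPase gene Abce1 had one of -0.72, with 5 of 6 guides down and 1 up, per the authors' deposited table.

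The integrated stress response acts directly on eIF2 and eIF2B. Its 11 genes had a median of -0.066, with 4 above and 7 below 0, or 63.6% below, beside 52% of all genes. None had an unadjusted p under 0.05 per the authors' deposited table. The lowest was the enrichment p of 0.124 for Eif2ak2, the double-stranded RNA-activated kinase of eIF2 alpha, at a log2 fold change of 0.32 per the authors' deposited table. Among 13 partners and repressors of the cap complex the median was 0.051, with a range of -1.51 to 0.46. Of them 8 lay above and 5 below 0, beside 52% of all genes below 0. The lowest value was that of Pdcd4, whose product inhibits eIF4A. It had 3 of 5 guides down, none up and a depletion p of 0.102 per the authors' deposited table. The kinase gene Mknk2, whose product phosphorylates eIF4E, had a log2 fold change of 0.46 but a depletion p of 0.0282 per the authors' deposited table, where 4 guides were up and 1 down. Gigyf2, a partner of Eif4e2, had an enrichment p of 0.0182 at a value of 0.080 per the authors' deposited table, where 2 of 4 guides were up and 2 down.

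The 9 mitochondrial translation factors had a median of 0.13. The mitochondrial initiation factor gene Mtif3 had a log2 fold change of -0.24 and a depletion p of 0.0303 per the authors' deposited table. Over these 5 lists, 3 of 49 genes had an unadjusted depletion p under 0.05 and 1 an unadjusted enrichment p under 0.05 per the authors' deposited table, beside 5.07% and 5.02% of all genes. The 84 genes of cytosolic ribosomal proteins had a median of -0.39 with 72 below 0, or 85.7%, beside 52% of all genes. The 76 genes of mitochondrial ribosomal proteins had one of -0.062 with 44 below 0, or 57.9%. The difference between these lists and the initiation factors was not tested.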

How the data were processed

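Guides were amplified by PCR from the DNA of sorted MERVL-positive and of total cells, per the labels' protocols. MAGeCK and the build mm10 were used, per the submitters' processing notes; the version, settings and normalization were not given in the sources used here. In 1 table, the authors deposited gene values whose columns are named as in a gene summary of MAGeCK. Per entry and direction, the authors deposited a score, a p-value, a false discovery rate, a rank and a number of guides past a threshold, per the file headers. They also deposited a fold change headed lfc, identical in its columns for both directions and taken as log2, as MAGeCK writes it. Of 22510 entries, 1132 microRNAs and 998 non-targeting guides were set aside, leaving 20380 genes.

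Medians, counts and exact (Clopper-Pearson) 95% intervals were computed with Python 3.11.15, pandas 2.3.3 and SciPy 1.17.1, and drawn with Matplotlib 3.10.9. The summaries were tested on simulated data. P-values and rates are the authors', over the whole table; the design had foreseen counts per library too, and with none no test was added. Positions are from RefSeq on GRCm38.p6, which has the coordinates of mm10, and all 51 members matched by symbol. The members and lists were chosen with earlier results of these data known, and the split into modules with the values in view. Text values follow a rule: full values for members with an unadjusted p under 0.05, the highest and lowest of each factor, and the subunits of eIF2, eIF2B and eIF3, meaning the log2 fold change, guides up and down and at least the lower p. From the other lists, genes with an unadjusted p under 0.05 were named, or else the one with the lowest p. Mcts1, Abce1, Cyfip1, Pdcd4, Eef1e1, Eef2k, Dhps and Dohh were named beyond it after their values were seen. The log2 values were used as deposited. Alternatives were other thresholds, centres and member sets.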

Additional observations from a re-analysis of the deposited data

How the results depend on the processing

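The median log2 fold change of the initiation factors ranged from -0.087 to 0.020 over 6 alternatives, and stayed within 0.1 of its value in each. It was -0.046 as a mean, -0.087 without near-copies, and -0.020 or 0.020 when centred on non-targeting guides or on all genes. Over the 42 members kept as the core pathway it was -0.072. That set left out Eif1ad, Eif2a, Eif2d, the eIF4E inhibitors and transporter, and both eIF5A genes. It kept Eif4a3 and Eif4e2, so not every regulator or factor outside initiation was removed. Since all members have 5 or 6 guides, a minimum of 5 guides changed no count, share or median of theirs. Each centring subtracts the same constant from every member, 0.019 for non-targeting guides and -0.021 for all genes. The guide minimum and the centrings therefore tell little about how stable the median is. In the authors' deposited MAGeCK values, the 4 members with an unadjusted depletion p under 0.05 became 1 at 0.01 and 0 at a false discovery rate of 0.05. The 4 with an unadjusted enrichment p under 0.05 became 0 at 0.01, 0 at a false discovery rate of 0.05 and 0 at a log2 fold change of 1 or more. The thresholds on p and on the rate are stricter by construction. With means in place of medians, eIF1/1A moved from 0.19 to 0.33, eIF2 from 0.51 to 0.24, eIF2B from -0.15 to -0.33 and eIF3 from 0.0042 to -0.20. eIF4 and eIF5 stayed within 0.1. eIF6 is 1 gene, so its mean and median are the same value. In eIF2B and eIF3 the mean takes in Eif2b3, Eif3h and Eif3b, which lie below -1.

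No paired analysis was possible because the table holds 1 comparison per gene and no value per library. For the same reason no library was left out, and normalization, DESeq2, low-count filters and a replicate block were not run. Depth per library is unknown, so a value near 0 leaves an effect of the knockout possible.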
